A study of Glycine max with 60 samples.

Results

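Seeds of the soybean line 3mlpa were compared with seeds of the line 3MWT at stage 3 (S3), when seeds measured 6 to 8 mm. The comparison took 6 of the 60 libraries of the series, the 3 labelled 3mlpa at S3 and the 3 labelled 3MWT at S3, and covered every gene with enough reads, 40517 of the 56044 genes in the count table. The line 3mlpa has seeds low in phytic acid and carries mutations of 3 genes (mips1/mrp-l/mrp-n). Its sister recombinant inbred line 3MWT (MIPS1/MRP-L/MRP-N) came from the same cross and has normal alleles of those genes. Each line is 1 inbred line, so the 3 mutations and any other stretch of the genome at which the sister lines differ cannot be told apart in this comparison. Plants of both lines grew in chambers, and seeds were sampled in triplicate by length. A p-value here therefore rests on the spread between triplicate samples, pooled over the 20 line and stage groups of the series. The other 54 libraries cover 4 further stages and the 1mlpa and 1MWT pair, near-isogenic lines with and without the MIPS1 mutation alone. They entered the same fit, where they add to the estimate of that spread. Otherwise they serve below only to place the S3 differences.

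Phytic acid is the main phosphorus store of seeds. MIPS1, a myo-inositol-3-phosphate synthase, catalyses the first step of inositol synthesis, from which phytic acid and, by way of galactinol, the raffinose family sugars are made. MRP-L and MRP-N are transporters of the ABCC type, and the related Arabidopsis protein MRP5 loads phytic acid into the vacuole. At this length the soybean embryo is passing from cell division to filling, with storage globulins, oil body proteins and starch accumulating in the cotyledons.

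The libraries held 22874166 to 29981023 counted reads. Levels are given as counts per 1000000 (CPM) scaled by TMM factors, with the 3 libraries of a line in the order of their replicate numbers. Storage globulin transcripts summed to 10139 to 98952 CPM and oil body protein transcripts to 9127 to 28552 CPM in the 6 libraries, transcripts that mark the embryo. The 3 endosperm genes found (AGL62, ZOU and ALE1 homologs) summed to 12.3, 12.9 and 8.79 CPM in 3mlpa and 7.31, 4.74 and 5.84 CPM in 3MWT. These sums did not overlap between the lines, and 0 of the 3 genes were called. Sums of such unlike genes do not measure the share of a tissue. In RNA of whole seeds, fewer cells of a type and less RNA per cell cannot be told apart. Replicate 1 of 3mlpa stood apart from the other libraries of its line. Its log2 CPM correlated at r = 0.963 and 0.965 with 3mlpa replicates 2 and 3 but at 0.963 to 0.969 with the 3 3MWT libraries, while 3mlpa replicates 2 and 3 correlated with each other at 0.985 and the 3MWT libraries at 0.983 to 0.989. For many gene lists and genes, counts and calls are also given without it. A count given only once may change as well when it is left out.

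A gene was called differentially expressed at a Benjamini-Hochberg adjusted p under 0.01 in edgeR's quasi-likelihood test with a difference of more than 2-fold, the limits that the study used. At S3, 1305 genes were higher and 526 lower in 3mlpa, 3.22% and 1.3% of the genes tested (4.52% in all). The higher genes had a median log2 fold change of 1.69 and the lower genes of -2.03, against 0.01 over all tested genes. More than 4-fold differences were found for 502 higher and 266 lower genes, and more than 16-fold differences for 150 and 83. The values of the 2 lines did not overlap for 1073 of the 1305 higher and 522 of the 526 lower genes, beside 36.2% of all tested genes. Without 3mlpa replicate 1 the count was 2601, 6.35% of the genes tested (2035 higher and 566 lower, 4.97% and 1.38%), and 1659 of the 1831 calls (90.6%) were kept. Without 3mlpa replicate 2 it was 987, without 3MWT replicate 3 it was 1183, and in a fit of the 6 libraries alone it was 497.

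**Figure D1:**
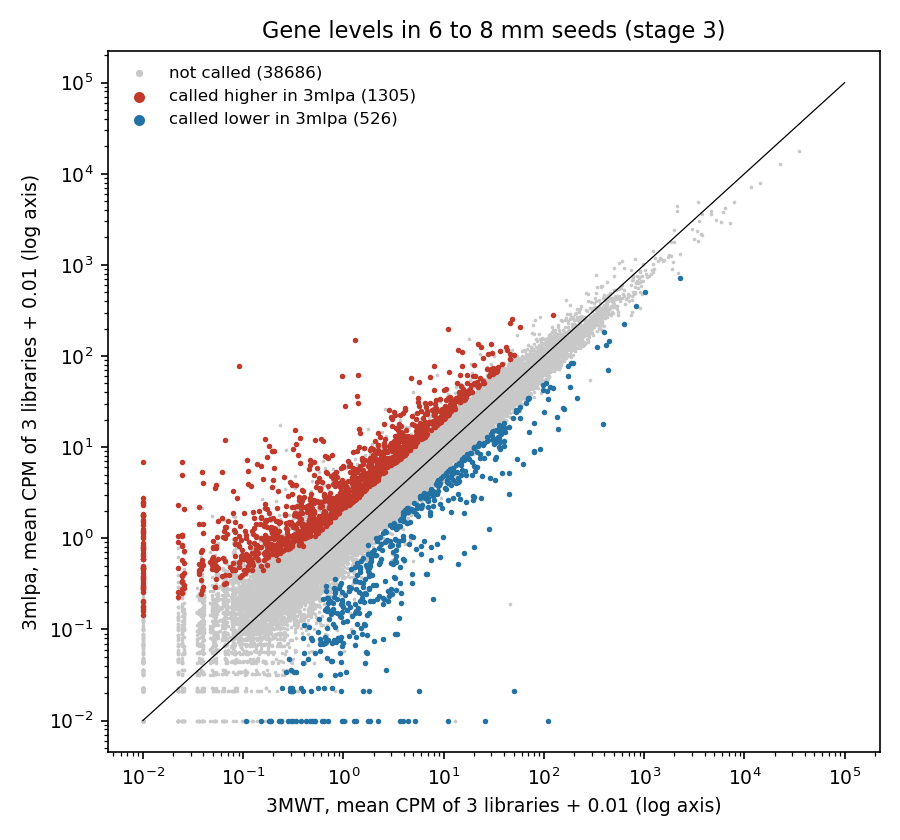
Mean CPM of the 3 libraries of 3MWT (horizontal) and 3mlpa (vertical) at S3 for the 40517 tested genes, both on log axes after adding 0.01, with called genes in red (1305 higher in 3mlpa) and blue (526 lower). The line marks equal levels, and the points along the left and lower margins are genes, called or not, with no read in 1 of the lines.

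Descriptions of genes were at hand for 11808 tested genes, nearly all of which the authors had called in some comparison of the series. Of these, 9.26% were higher and 3.89% lower in 3mlpa at S3, with a median log2 fold change of 0.12, and the counts of the gene lists below are to be read against these shares and not against those of all genes. Without 3mlpa replicate 1 the shares were 12.4% and 3.84%.

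The 3 mutated genes were read at like levels in both lines. MIPS1 (Glyma.11G238800) stood at 2933, 1959 and 2579 CPM in 3mlpa and 3043, 2678 and 3216 CPM in 3MWT, with the ranges of the lines overlapping (log2 fold change -0.26 ± 0.25, adjusted p = 0.483). MRP-N (Glyma.03G167800) stood at 28.2, 52.3 and 59.3 CPM in 3mlpa and 48.0, 64.3 and 73.2 CPM in 3MWT (log2 fold change -0.41 ± 0.22, adjusted p = 0.179). MRP-L (Glyma.19G169000) was at 48.7, 54.3 and 59.7 CPM in 3mlpa and 37.8, 52.0 and 55.6 CPM in 3MWT (log2 fold change 0.16 ± 0.16, adjusted p = 0.498). The mutations are small changes within the coding sequence, so these levels are no check of the labels.

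Around MIPS1, 7 of 76 inositol and phytic acid genes were higher and 3 lower in 3mlpa, a list median of 0.09 (9 and 3 without 3mlpa replicate 1). In all 13.2% of this list was called, beside 13.1% of all annotated genes. The higher genes described here consume inositol or remove phosphate from its phosphorylated forms. An inositol methyltransferase gene (Glyma.06G295700), whose product belongs to the family that makes methylated inositols, stood at 14.0, 38.3 and 38.3 CPM in 3mlpa and 7.40, 8.15 and 6.17 CPM in 3MWT (log2 fold change 2.05 ± 0.30, adjusted p = 3.73e-06). All 3 3mlpa libraries were above the 3MWT range, replicate 1 by the least. A second gene of the same annotation (Glyma.12G109800) stood at 1.96, 6.10 and 8.01 CPM in 3mlpa and 1.17, 1.4 and 0.935 CPM in 3MWT (log2 fold change 2.18 ± 0.38, adjusted p = 4.61e-05). MIOX4 (Glyma.05G224500), an inositol oxygenase that opens the ring to glucuronic acid, stood at 8.50, 49.6 and 68.8 CPM in 3mlpa and 11.1, 7.57 and 5.24 CPM in 3MWT (log2 fold change 2.4 ± 0.54, adjusted p = 0.00112), so that 3mlpa replicate 1 lay within the 3MWT range and replicates 2 and 3 far above it. Without that replicate the log2 fold change was 2.90. An inositol 5-phosphatase gene (IP5PII, Glyma.01G200500) was read at 8.37, 7.99 and 7.93 CPM in 3mlpa and 3.85, 4.41 and 3.23 CPM in 3MWT (log2 fold change 1.08 ± 0.20, adjusted p = 0.000104). A type I inositol phosphatase family gene (Glyma.17G178700) was at 8.84, 13.7 and 13.4 CPM in 3mlpa and 4.89, 5.69 and 5.42 CPM in 3MWT (log2 fold change 1.16 ± 0.21, adjusted p = 7.48e-05). Among the lower genes was a further inositol phosphate synthase gene, annotated as MIPS3 (Glyma.08G138200), at 0.27, 0.196 and 0.0391 CPM in 3mlpa and 1.51, 0.845 and 1.12 CPM in 3MWT (log2 fold change -2.71 ± 0.48, adjusted p = 5.59e-05), a small fraction of the MIPS1 level even per gene length (mean RPKM 0.482 against 1438 in 3MWT).

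Of 40 genes of raffinose and sucrose metabolism, 4 were higher and 1 lower (9 and 2 without 3mlpa replicate 1). In all 12.5% of this list was called, beside 13.1% of all annotated genes. Most of the called members remove galactose or break raffinose down, and a neutral invertase gene was the other. The alpha-galactosidase genes Glyma.14G049900 (57.7, 80.1 and 73.6 CPM in 3mlpa and 31.2, 28.4 and 34.0 CPM in 3MWT, log2 fold change 1.18 ± 0.31, adjusted p = 0.00486) and Glyma.16G209800 (11.9, 17.8 and 16.1 CPM in 3mlpa and 8.52, 6.50 and 3.83 CPM in 3MWT, log2 fold change 1.27 ± 0.34, adjusted p = 0.0055) were higher, whereas the AGAL2 homolog Glyma.20G216000 was lower at 3.41, 3.65 and 3.48 CPM in 3mlpa and 9.65, 9.62 and 11.5 CPM in 3MWT (log2 fold change -1.54 ± 0.23, adjusted p = 3.59e-06). The SIP2 homolog Glyma.04G190000, of the family of seed imbibition proteins that act on raffinose in Arabidopsis, was higher at 5.87, 6.46 and 5.90 CPM in 3mlpa and 2.68, 2.13 and 2.29 CPM in 3MWT (log2 fold change 1.36 ± 0.20, adjusted p = 4.87e-06). Summed over the list, transcripts were at 1286, 1110 and 1265 CPM in 3mlpa and 1492, 1476 and 1621 CPM in 3MWT, lower in each 3mlpa library.

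The starch list had 5 of 28 genes higher and none lower, and all 5 break starch down. Among them, 4 were homologs of BAM3, a plastid beta-amylase. Glyma.11G039400 stood at 5.50, 15.7 and 17.5 CPM in 3mlpa and 4.07, 1.4 and 1.4 CPM in 3MWT (log2 fold change 2.50 ± 0.51, adjusted p = 0.000415), Glyma.01G203400 at 6.21, 7.86 and 9.18 CPM in 3mlpa and 3.33, 2.64 and 1.45 CPM in 3MWT (log2 fold change 1.64 ± 0.33, adjusted p = 0.000362) and Glyma.17G150100 at 4.35, 18.4 and 15 CPM in 3mlpa and 4.59, 2.90 and 2.94 CPM in 3MWT (log2 fold change 1.85 ± 0.39, adjusted p = 0.000603). In the first and the last, 3mlpa replicate 1 was nearest to 3MWT, and in the last it lay within the 3MWT range. The fourth BAM3 gene (Glyma.05G068000) and an alpha-amylase gene (AMY1, Glyma.17G242400) also overlapped through that replicate, with adjusted p = 0.0071 and 0.00686. A starch branching enzyme gene (BE1, Glyma.18G092600) was at 22.6, 20.1 and 18.8 CPM in 3mlpa and 14.2, 14.9 and 13.7 CPM in 3MWT, below the limit on fold change (log2 fold change 0.52 ± 0.13, adjusted p = 0.00231), and the summed list gave 1379, 2763 and 2347 CPM in 3mlpa and 2618, 3007 and 3304 CPM in 3MWT.

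Sugar transporter genes had 8 of 57 members higher and 3 lower (10 and 2 without 3mlpa replicate 1). The largest differences were in SWEET genes, which encode exporters of sugars. A SWEET17 homolog (Glyma.06G200800), the Arabidopsis counterpart of which moves fructose across the vacuole membrane, stood at 3.2, 8.74 and 4.57 CPM in 3mlpa and 0.13, 0.0367 and 0.14 CPM in 3MWT (log2 fold change 5.75 ± 0.55, adjusted p = 1.47e-10), close to silent in 3MWT. Another SWEET17 homolog (Glyma.20G082700) stood at 1.42, 2.28 and 2.19 CPM in 3mlpa and 0.389, 0.514 and 0.608 CPM in 3MWT (log2 fold change 1.95 ± 0.39, adjusted p = 0.000281). SWEET2 (Glyma.12G234500) was at 4.45, 7.63 and 8.08 CPM in 3mlpa and 3.2, 2.68 and 2.66 CPM in 3MWT (log2 fold change 1.24 ± 0.23, adjusted p = 0.000103). Neighbouring SWEET genes of chromosome 4 differed in opposite directions. Glyma.04G198600, annotated as SWEET13, was higher at 12.7, 17.7 and 15.2 CPM in 3mlpa and 5.02, 5.99 and 7.15 CPM in 3MWT (log2 fold change 1.33 ± 0.27, adjusted p = 0.000291), and Glyma.04G198500, annotated as SWEET12, was lower at 13.6, 5.58 and 6.72 CPM in 3mlpa and 27.1, 30.7 and 25.6 CPM in 3MWT (log2 fold change -1.69 ± 0.44, adjusted p = 0.00449). STP1 (Glyma.08G059700), a hexose importer, was at 38.5, 141 and 138 CPM in 3mlpa and 44.5, 18.9 and 19.9 CPM in 3MWT, with 3mlpa replicate 1 inside the 3MWT range (log2 fold change 1.93 ± 0.42, adjusted p = 0.000707, 2.34 without it). STP1 was not called by edgeR's test without 3MWT replicate 3 (adjusted p = 0.0111) or with the 6 compared libraries alone (adjusted p = 0.0479).

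**Figure D2:**
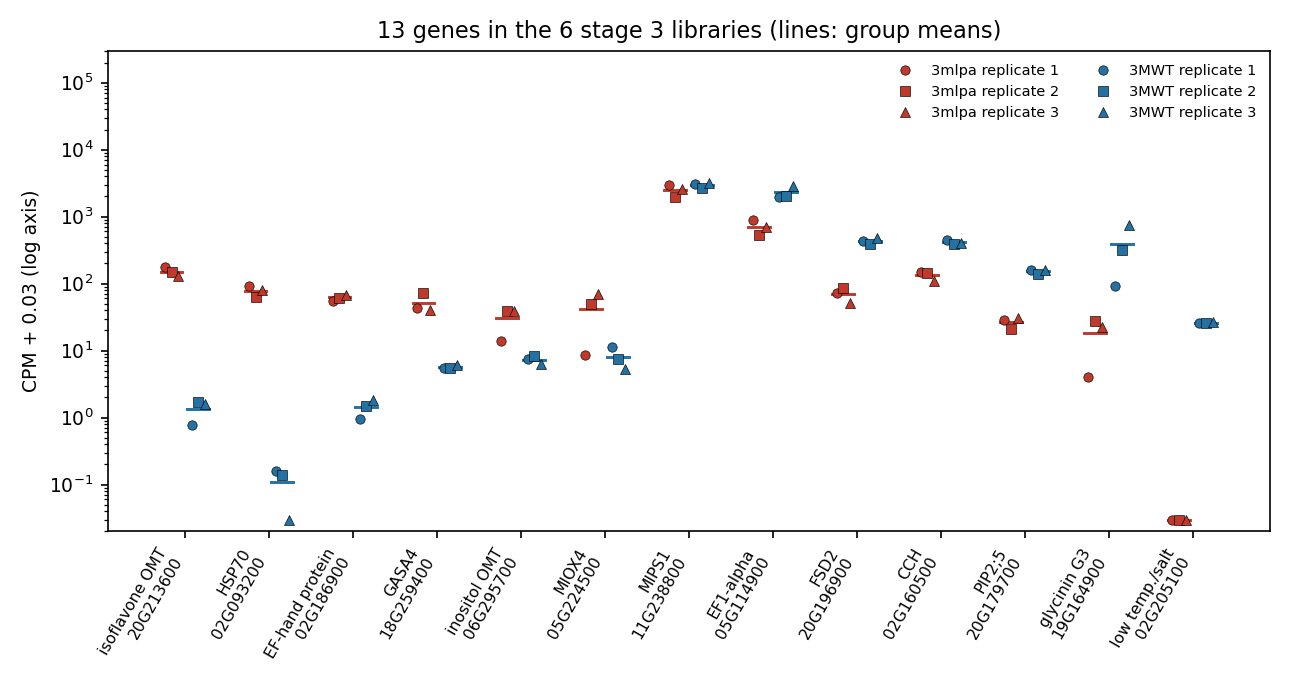
CPM plus 0.03 on a log axis for 13 genes in the 3 libraries of 3mlpa (red) and of 3MWT (blue) at S3, with a horizontal bar at each group mean and a marker shape for each replicate. MIPS1 overlapped between the lines, MIOX4 overlapped through 3mlpa replicate 1 alone, and the other 11 genes did not overlap.

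Storage protein and oil body transcripts varied within the lines as widely as between them. Of 14 storage globulin genes 1 was lower and none higher, and the list median was -0.41. Summed globulin transcripts were 10139, 54402 and 46281 CPM in 3mlpa and 42738, 72451 and 98952 CPM in 3MWT, with replicate 1 of 3mlpa lowest by far and the lines overlapping. The glycinin G1 gene (Glyma.03G163500) was at 3278, 27680 and 21854 CPM in 3mlpa and 20006, 37459 and 48552 CPM in 3MWT. The called gene was glycinin G3 (Glyma.19G164900), at 3.98, 27.2 and 22.7 CPM in 3mlpa and 93.2, 321 and 742 CPM in 3MWT (log2 fold change -4.42 ± 0.87, adjusted p = 0.000234), lower in each 3mlpa library than in any 3MWT library. Its neighbour Glyma.19G164800, annotated as glycinin G7, was at 1.15, 6.04 and 4.10 CPM in 3mlpa and 0.995, 1.18 and 1.92 CPM in 3MWT and was called higher without 3mlpa replicate 1 and under 3 other alternatives (log2 fold change 1.47 ± 0.43, adjusted p = 0.0101, 1.91 without it). These genes are close copies of each other, and reads may be split between them.

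None of 20 oil body genes was called by edgeR's quasi-likelihood test (3 of the 20 had an unadjusted p under 0.05, and DESeq2 called 1 higher and 0 lower), with summed levels of 9127, 18783 and 15388 CPM in 3mlpa and 17258, 20341 and 28552 CPM in 3MWT. A caleosin-type gene (Glyma.09G123800) was at 0.776, 43.3 and 34.2 CPM in 3mlpa and 5.80, 1.43 and 0.608 CPM in 3MWT and passed without 3mlpa replicate 1 and under 4 other alternatives (log2 fold change 3.32 ± 0.98, adjusted p = 0.0109, 3.90 without it). Of 25 embryo maturation regulators 1 was called. Homologs of ABI3, FUS3, WRI1 and LEC1, which drive maturation in Arabidopsis seeds, were not called. The AGL15 homolog Glyma.04G142500, of a MADS factor active in embryos, was the exception, with 0 counts in each 3mlpa library and 2.16, 1.54 and 1.82 CPM in 3MWT, a level in 3MWT at least 52.8-fold higher than the limit of 3 counts allows for 3mlpa (adjusted p = 9.23e-06). A second AGL15 homolog (Glyma.U018000) was read in all 6 libraries, at 17.1 to 23.1 CPM in 3mlpa and 23.7 to 28.9 CPM in 3MWT.

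Late embryogenesis abundant (LEA) proteins, which protect cells during desiccation, had 3 of 48 genes higher and none lower, and 9 higher without 3mlpa replicate 1. The ECP63 homolog Glyma.03G189200 stood at 3.54, 70.0 and 11.4 CPM in 3mlpa and 0.952, 1.25 and 0.888 CPM in 3MWT (log2 fold change 4.77 ± 0.76, adjusted p = 1.33e-05), above 3MWT in every library but far apart within 3mlpa. Glyma.13G291800 was at 0.371, 95.1 and 92.4 CPM in 3mlpa and 7.14, 6.46 and 12.2 CPM in 3MWT, where 3mlpa replicate 1 was the lowest and the other 3mlpa libraries the highest of the 6 (log2 fold change 2.87 ± 0.90, adjusted p = 0.0165, 3.47 without it). Of 57 protease inhibitor genes 2 were higher and 4 lower. The Kunitz trypsin inhibitor genes Glyma.08G342000 (16.8, 9.88 and 10.4 CPM in 3mlpa and 2.99, 2.17 and 2.57 CPM in 3MWT, log2 fold change 2.27 ± 0.38, adjusted p = 2.93e-05) and Glyma.16G212500 (10.5, 3.65 and 4.14 CPM in 3mlpa and 29.4, 20.9 and 14.3 CPM in 3MWT, log2 fold change -1.82 ± 0.33, adjusted p = 8.79e-05) went in opposite directions.

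In the family of 2S albumins and lipid transfer proteins 4 of 76 genes were higher and 8 lower (4 and 6 without 3mlpa replicate 1). Some are among the most heavily read genes called at S3. Glyma.17G111100 was lower at 562, 391 and 552 CPM in 3mlpa and 899.6, 1007 and 1172 CPM in 3MWT (log2 fold change -1.03 ± 0.28, adjusted p = 0.00551). The lipid transfer protein LTP3 gene (Glyma.18G214600) was also lower at 59.6, 41.6 and 31.2 CPM in 3mlpa and 97.7, 128 and 146 CPM in 3MWT (log2 fold change -1.49 ± 0.28, adjusted p = 0.000165), while Glyma.05G002200 was higher at 185, 346 and 312 CPM in 3mlpa and 143, 121 and 107 CPM in 3MWT (log2 fold change 1.18 ± 0.32, adjusted p = 0.00541). The neighbouring hydrophobic seed protein genes Glyma.15G119700 and Glyma.15G119800 rested on 1 library. The former had 0 counts in each 3mlpa library and 0.476, 0.477 and 329.9 CPM in 3MWT and the latter 0, 0.0326 and 0 CPM in 3mlpa and 0.26, 0.11 and 152 CPM in 3MWT, so that 3MWT replicate 3 alone was high. Their adjusted p values were 0.00775 and 0.00548, and a fold change over the group would describe that library only. Neither was called without 3mlpa replicate 1.

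The largest differences among genes higher in 3mlpa were close to presence against absence. The SAUL1 homolog Glyma.04G140100, annotated as a senescence-associated E3 ubiquitin ligase, had 5.06, 7.41 and 8.05 CPM in 3mlpa and 0 counts in each 3MWT library, at least 164-fold higher (adjusted p = 8.46e-17). HSP70 (Glyma.02G093200), a chaperone gene, stood at 92.1, 63.0 and 80.3 CPM in 3mlpa and 0.13, 0.11 and 0 CPM in 3MWT (log2 fold change 9.80 ± 0.63, adjusted p = 3.01e-16), and its 3MWT values rest on a handful of reads. An isoflavone 7-O-methyltransferase gene (Glyma.20G213600), whose product methylates isoflavones of the legume defence pathway, stood at 175, 147 and 130.0 CPM in 3mlpa and 0.736, 1.65 and 1.54 CPM in 3MWT (log2 fold change 6.83 ± 0.27, adjusted p = 1.7e-23). The adjacent Glyma.20G213700, of the same annotation, followed at 11.7, 12.1 and 8.79 CPM in 3mlpa and 0.173, 0.441 and 0.374 CPM in 3MWT (log2 fold change 5.01 ± 0.70, adjusted p = 1.42e-06), and reads shared by these copies cannot be assigned with certainty. Every 3mlpa library exceeded every 3MWT library in these genes by more than an order of magnitude.

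A calcium-binding EF-hand protein gene (Glyma.02G186900) stood at 55.6, 61.9 and 68.7 CPM in 3mlpa and 0.909, 1.47 and 1.78 CPM in 3MWT (log2 fold change 5.48 ± 0.25, adjusted p = 2.43e-21). An AP2/B3-like factor gene (Glyma.07G224100) was at 15.8, 9.04 and 11.1 CPM in 3mlpa and 0.606, 0.588 and 0.327 CPM in 3MWT (log2 fold change 4.53 ± 0.32, adjusted p = 9.38e-15). Both were tight within each line. GASA4 (Glyma.18G259400), a gibberellin-regulated small peptide gene, was at 42.6, 72.7 and 39.8 CPM in 3mlpa and 5.41, 5.47 and 6.03 CPM in 3MWT (log2 fold change 3.2 ± 0.40, adjusted p = 1.48e-07). A RAD3-like helicase gene (Glyma.14G223700) was at 54.0, 73.8 and 71.0 CPM in 3mlpa and 13.1, 12.9 and 8.18 CPM in 3MWT (log2 fold change 2.54 ± 0.13, adjusted p = 1.11e-19). Other higher genes were held up by fewer libraries. A cytidine deaminase gene (Glyma.09G080100) was at 2.36, 92.9 and 87.2 CPM in 3mlpa and 1.90, 0.661 and 0.327 CPM in 3MWT, with replicate 1 of 3mlpa just above the 3MWT range, and VLN4 (Glyma.13G098600), an actin-bundling villin, was at 2.53, 3.75 and 30.1 CPM in 3mlpa and 0.13, 0.147 and 0.187 CPM in 3MWT, with replicate 3 of 3mlpa well above the other libraries (adjusted p = 0.00067 and 0.000864).

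Some called genes had no read in 1 of the lines. There were 57 with 0 counts in the 3 3MWT libraries of S3, 27 of which had 0 counts in all 15 3MWT libraries of the series. Conversely, 35 had 0 counts in the 3 3mlpa libraries, 6 of them in all 15 3mlpa libraries and 17 with under 3 counts over those 15. With the highest level in 3mlpa among the former, after SAUL1, were an RNA-binding protein gene with a PIN domain (Glyma.17G002900, 2.29, 3.10 and 2.89 CPM in 3mlpa and 0 counts in each 3MWT library), MAP65-6 (Glyma.10G119700, a microtubule-associated protein, 2.97, 2.90 and 1.64 CPM in 3mlpa and 0 counts in each 3MWT library) and the undescribed Glyma.03G030000 (2.36, 2.77 and 2.19 CPM in 3mlpa and 0 counts in each 3MWT library). Their levels were at least 66.0-, 59.9- and 58.4-fold higher in 3mlpa.

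Among the genes without reads in 3mlpa, the highest in 3MWT after the hydrophobic seed protein gene was Glyma.02G205100, of a family of low temperature and salt responsive proteins, with 0 counts in each 3mlpa library and 25.4, 25.8 and 26.8 CPM in 3MWT. It was at least 746-fold lower in 3mlpa (adjusted p = 2.77e-15), and its 3MWT libraries were within a few percent of each other. Next came the undescribed genes Glyma.08G358500 (0 counts in each 3mlpa library and 6.88, 9.18 and 16.7 CPM in 3MWT), Glyma.04G132300 (0 counts in each 3mlpa library and 5.19, 5.07 and 5.42 CPM in 3MWT) and Glyma.19G213800 (0 counts in each 3mlpa library and 4.07, 5.14 and 3.88 CPM in 3MWT), at least 313-, 149.7- and 125-fold lower. ABCG40 (Glyma.06G212800), in Arabidopsis an importer of abscisic acid, had 0 counts in each 3mlpa library and 3.59, 3.71 and 3.55 CPM in 3MWT, and a kinesin motor gene (Glyma.04G155500) had 0 counts in each 3mlpa library and 3.38, 4.19 and 4.07 CPM in 3MWT, at least 104- and 111-fold lower.

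Genes lower but still read in 3mlpa included a BED zinc finger transposase-like gene (Glyma.09G099400) at 0.607, 0.783 and 0.625 CPM in 3mlpa and 15.8, 16.0 and 16.1 CPM in 3MWT (log2 fold change -4.55 ± 0.19, adjusted p = 1.32e-22), the gibberellin-regulated GASA1 gene (Glyma.06G024500) at 0.0337, 0.424 and 0.156 CPM in 3mlpa and 5.54, 6.79 and 11.3 CPM in 3MWT (log2 fold change -5.21 ± 0.57, adjusted p = 6.43e-09). A cysteine-rich receptor kinase gene (CRK26, Glyma.20G138000) was at 0.337, 0.391 and 0.469 CPM in 3mlpa and 6.62, 6.90 and 6.59 CPM in 3MWT (log2 fold change -4.06 ± 0.34, adjusted p = 2.37e-12). The 2 GASA peptide genes of the family thus differed in opposite directions. None of these lower genes overlapped between the lines.

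Of the 10 called genes with the most reads, 9 were lower in 3mlpa. The first was an elongation factor 1-alpha gene (Glyma.05G114900), at 890.2, 538 and 701 CPM in 3mlpa and 1976, 2021 and 2904 CPM in 3MWT (log2 fold change -1.70 ± 0.22, adjusted p = 3.52e-07). ROC3 (Glyma.12G024700), a cyclophilin, was at 393, 334 and 347 CPM in 3mlpa and 716, 702 and 1053 CPM in 3MWT (log2 fold change -1.20 ± 0.21, adjusted p = 6.03e-05). A gamma-glutamyl hydrolase gene of folate metabolism (GGH1, Glyma.13G267900) was at 105, 139.7 and 190.4 CPM in 3mlpa and 389.9, 391 and 565 CPM in 3MWT (log2 fold change -1.63 ± 0.37, adjusted p = 0.00126). All were lower in each 3mlpa library than in any 3MWT library. An auxin down-regulated protein gene (Glyma.10G214500) was at 146, 346 and 189 CPM in 3mlpa and 659.9, 617 and 594 CPM in 3MWT and was not called without 3mlpa replicate 1 (log2 fold change -1.46 ± 0.41, adjusted p = 0.00725, -1.21 without it).

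Several of the lower abundant genes handle copper, iron or manganese. FSD2 (Glyma.20G196900), an iron superoxide dismutase of the chloroplast, was at 73.4, 85.8 and 50.8 CPM in 3mlpa and 431, 389 and 480.1 CPM in 3MWT (log2 fold change -2.63 ± 0.51, adjusted p = 0.000179), and its homolog Glyma.10G193500 at 29.2, 31.4 and 18.2 CPM in 3mlpa and 168, 148 and 163 CPM in 3MWT (log2 fold change -2.60 ± 0.46, adjusted p = 5.95e-05). The copper chaperone CCH (Glyma.02G160500) was at 147, 144 and 108 CPM in 3mlpa and 449.5, 395 and 405 CPM in 3MWT (log2 fold change -1.64 ± 0.29, adjusted p = 5.86e-05). COPT5 (Glyma.04G057000), a copper transporter, was at 14.1, 21.1 and 14.4 CPM in 3mlpa and 46.9, 38.2 and 50.4 CPM in 3MWT (log2 fold change -1.45 ± 0.27, adjusted p = 0.000122). NRAMP3 (Glyma.17G165200), a vacuolar exporter of iron and manganese, was at 106, 147 and 119.5 CPM in 3mlpa and 463, 269.7 and 278 CPM in 3MWT (log2 fold change -1.44 ± 0.41, adjusted p = 0.00905, -1.33 and not called without 3mlpa replicate 1), and its homolog Glyma.05G101700 at 41.8, 48.3 and 33.1 CPM in 3mlpa and 138, 89.4 and 91.1 CPM in 3MWT (log2 fold change -1.37 ± 0.17, adjusted p = 7.05e-08). In each of the 6 genes the highest 3mlpa library was below the lowest 3MWT library. They were picked out after their values were seen, and the wider list of mineral ion transporters and aquaporins had 5 of 135 genes higher and 8 lower, but 11 higher and 7 lower without 3mlpa replicate 1.

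Aquaporins, which conduct water across membranes, included a PIP2;5 homolog (Glyma.20G179700) at 28.7, 20.7 and 30.4 CPM in 3mlpa and 160.1, 141 and 159 CPM in 3MWT (log2 fold change -2.53 ± 0.22, adjusted p = 1.26e-11). PIP2;1 (Glyma.03G180900) was at 4.96, 17.5 and 11.3 CPM in 3mlpa and 22.8, 33.4 and 52.1 CPM in 3MWT (log2 fold change -1.68 ± 0.39, adjusted p = 0.00137, -1.31 and not called without 3mlpa replicate 1). Higher members of that list were read at low levels, among them a potassium transporter gene (KUP1, Glyma.10G119600) at 4.32, 3.88 and 3.83 CPM in 3mlpa and 0.0433, 0 and 0.0467 CPM in 3MWT (adjusted p = 2.9e-09), a neighbour of the MAP65-6 gene named above, and a cation channel gene (Glyma.19G112800) at 1.69, 8.74 and 4.45 CPM in 3mlpa and 0.909, 0.404 and 0.187 CPM in 3MWT (log2 fold change 3.30 ± 0.57, adjusted p = 4.09e-05).

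Phosphate genes were mixed, with 5 of 68 higher and 4 lower, 13.2% called beside 13.1% of all annotated genes. PHT1;7 (Glyma.20G204000), a phosphate importer, was at 2.83, 11.5 and 12.2 CPM in 3mlpa and 2.64, 1.47 and 2.24 CPM in 3MWT (log2 fold change 2.07 ± 0.37, adjusted p = 5.93e-05). The purple acid phosphatase gene PAP29 (Glyma.02G162700) was at 1.82, 3.10 and 2.66 CPM in 3mlpa and 1.13, 0.808 and 0.982 CPM in 3MWT (log2 fold change 1.38 ± 0.24, adjusted p = 4.67e-05). SPX3 (Glyma.03G032400), of a family of phosphate sensors, was at 0.0337, 0.0979 and 0.0781 CPM in 3mlpa and 0.909, 0.845 and 0.841 CPM in 3MWT (log2 fold change -3.54 ± 0.67, adjusted p = 0.000201). The vegetative storage proteins of soybean, of the acid phosphatase superfamily, went in opposite directions. The stem 28 kDa glycoprotein gene (Glyma.07G014500) was at 4.28, 2.54 and 2.38 CPM in 3mlpa and 49.0, 42.8 and 42.3 CPM in 3MWT (log2 fold change -3.86 ± 0.60, adjusted p = 1.01e-05), low in all 3mlpa libraries, and the stem 31 kDa glycoprotein gene (Glyma.08G200100) at 21.3, 13 and 1.13 CPM in 3mlpa and 0, 0.0735 and 0.0935 CPM in 3MWT (log2 fold change 7.62 ± 1.59, adjusted p = 0.000512), with the 3mlpa libraries far apart from each other.

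Nitrogen transport showed 12 of 128 amino acid, nitrate and peptide transporter genes higher and 4 lower (17 and 5 without 3mlpa replicate 1). Of this list 12.5% was called, beside 13.1% of all annotated genes. The amino acid permease gene AAP2 (Glyma.06G156700) was at 6.04, 12.2 and 10.8 CPM in 3mlpa and 1.34, 1.69 and 1.78 CPM in 3MWT (log2 fold change 2.59 ± 0.40, adjusted p = 1e-05). An amino acid transporter gene (Glyma.10G208800) was lower at 2.77, 3.69 and 3.44 CPM in 3mlpa and 9.48, 7.01 and 9.68 CPM in 3MWT (log2 fold change -1.4 ± 0.24, adjusted p = 4.96e-05). Of 94 ABC transporter genes 9 were higher and 3 lower, 12.8% called in all (16 and 1 without 3mlpa replicate 1). One of the higher was ABCC2 (Glyma.04G126500), of the subfamily of MRP-L and MRP-N, at 8.84, 11.3 and 10.1 CPM in 3mlpa and 2.90, 4.11 and 3.04 CPM in 3MWT (log2 fold change 1.58 ± 0.27, adjusted p = 4.85e-05).

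Flavonoid and isoflavonoid genes had 4 of 102 members higher and 6 lower (7 and 7 without 3mlpa replicate 1). Besides the isoflavone methyltransferases, members of the chalcone synthase cluster of chromosome 8, whose products make the first flavonoid skeleton, were called in both directions. Glyma.08G109500 was higher at 3.91, 2.35 and 3.51 CPM in 3mlpa and 0.13, 0.22 and 0.28 CPM in 3MWT (log2 fold change 3.93 ± 0.49, adjusted p = 1.11e-07), while its neighbours Glyma.08G109400 (0, 0.0653 and 0.156 CPM in 3mlpa and 1.17, 1.21 and 1.03 CPM in 3MWT, log2 fold change -3.93 ± 0.66, adjusted p = 3.86e-05) and Glyma.08G109300 (0.0675, 0 and 0.117 CPM in 3mlpa and 0.519, 0.734 and 0.701 CPM in 3MWT, log2 fold change -3.38 ± 0.93, adjusted p = 0.00748, not called without 3mlpa replicate 1) were lower. These copies are nearly identical, and reads that match several of them may be lost or divided. A chalcone isomerase-fold gene (Glyma.15G242900) was lower at 5.84, 5.35 and 5.12 CPM in 3mlpa and 15.1, 13.3 and 20.4 CPM in 3MWT (log2 fold change -1.58 ± 0.17, adjusted p = 2.4e-09). Of 34 seed coat genes 1 was higher (2 without 3mlpa replicate 1), the BAN homolog Glyma.19G254600, a step towards tannins, at 0.708, 2.22 and 2.42 CPM in 3mlpa and 0.519, 0.404 and 0.514 CPM in 3MWT (log2 fold change 1.89 ± 0.45, adjusted p = 0.0021). Seed coat transcripts summed to 739 to 882 CPM in 3mlpa and 674 to 747 CPM in 3MWT.

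The immune receptor genes of the NBS-LRR class, which recognise pathogen molecules inside the cell, had the most higher calls of any list by number. By share they came after the transposon-related genes, of which 7 of 21 were higher and 7 lower. Of the NBS-LRR list 33.3% was called, beside 13.1% of all annotated genes. Of 186 tested, 56 were higher and 6 lower in 3mlpa, with a list median of 1.04 (62 and 4 without 3mlpa replicate 1). Summed, they gave 622, 701 and 814 CPM in 3mlpa and 371, 439 and 347 CPM in 3MWT, with no overlap. They lie in clusters of copies, so calls of neighbours are not independent of each other. On chromosome 6, 11 were higher and 3 lower, and chromosomes 16, 3 and 18 had 7, 6 and 6 higher. The TIR-NBS-LRR gene Glyma.06G268500 had 1.69, 1.89 and 1.87 CPM in 3mlpa and 0 counts in each 3MWT library, at least 43.5-fold higher, and Glyma.06G267400 stood at 4.69, 8.42 and 5.58 CPM in 3mlpa and 1.13, 0.624 and 1.17 CPM in 3MWT (log2 fold change 2.70 ± 0.28, adjusted p = 1.63e-09). On chromosome 14, the NB-ARC genes Glyma.14G205000 (4.72, 4.63 and 3.83 CPM in 3mlpa and 0.26, 0.0735 and 0.234 CPM in 3MWT, log2 fold change 4.56 ± 0.57, adjusted p = 1.48e-07) and Glyma.14G206500 (4.08, 4.14 and 3.59 CPM in 3mlpa and 0.303, 0.22 and 0.374 CPM in 3MWT, log2 fold change 3.72 ± 0.47, adjusted p = 1.59e-07) were higher. On chromosome 3, Glyma.03G034400 stood at 3.27, 4.73 and 4.41 CPM in 3mlpa and 0.519, 0.404 and 0.888 CPM in 3MWT (log2 fold change 2.79 ± 0.27, adjusted p = 1.18e-10). The RPM1-type genes Glyma.18G087000 and Glyma.18G088500 had no read in 3MWT and 0.371 to 0.652 CPM in 3mlpa. They were called by edgeR's test (adjusted p = 0.00158 and 0.000745) but not by DESeq2 over all libraries (adjusted p = 0.315 and 0.493).

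The called genes were spread over all chromosomes, from 3.15% of tested genes on chromosome 16 to 5.67% on chromosome 4, and were dense in a few places. In 807 windows of 50 tested genes in the order of the gene identifiers, the median share called was 4%, 120 windows had none and 8 had 20% or more. The densest, on chromosome 6 from Glyma.06G262900 to Glyma.06G271400, had 12 genes higher and 3 lower (30%) and holds the TIR-NBS-LRR genes named above. Next to it, the window from Glyma.06G249600 to Glyma.06G262800 had 6 higher and 4 lower. The window from Glyma.14G201200 to Glyma.14G208000 had 9 higher and 2 lower, that from Glyma.15G235000 to Glyma.15G244300 had 7 and 4, and those from Glyma.18G081100 to Glyma.18G090900 and from Glyma.03G029700 to Glyma.03G037000 had 7 and 3 each. In the chromosome 15 window lies SHT (Glyma.15G241300), a spermidine acyltransferase gene, at 2.46, 6.46 and 6.05 CPM in 3mlpa and 0.0433, 0 and 0 CPM in 3MWT (adjusted p = 1.71e-10). Of the other 2 windows, that on chromosome 12 from Glyma.12G229800 to Glyma.12G236600 had 3 higher and 9 lower, the lower ones being chloroplast homologs and SWEET2 one of the higher, and that on chromosome 13, with 12 lower, is described below.

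Transcription factors were mostly higher where they were called, as were annotated genes in general (9.26% higher and 3.89% lower). Of NAC genes 26.9% were called, beside 13.1% of all annotated genes. For WRKY, ERF and AP2, and MYB genes the shares called were 7.58%, 10.1% and 4.96%, below that of annotated genes. All 18 called NAC genes of 67 were higher, with a list median of 1.01, and 25 without 3mlpa replicate 1. Summed NAC transcripts were 251, 572 and 460 CPM in 3mlpa and 230, 207 and 220 CPM in 3MWT, so that the higher sum lay in 3mlpa replicates 2 and 3. NAC075 homologs, in Arabidopsis linked to secondary cell walls, were higher at 2.93, 6.75 and 6.25 CPM in 3mlpa and 1.64, 2.24 and 1.64 CPM in 3MWT (Glyma.01G005500, log2 fold change 1.52 ± 0.25, adjusted p = 1.65e-05) and 4.69, 7.24 and 6.56 CPM in 3mlpa and 2.42, 3.31 and 2.62 CPM in 3MWT (Glyma.07G126500, log2 fold change 1.14 ± 0.20, adjusted p = 4.18e-05). The SND2 homolog Glyma.07G201800, a secondary wall regulator, was at 11.4, 13.3 and 10.9 CPM in 3mlpa and 4.76, 5.69 and 4.86 CPM in 3MWT (log2 fold change 1.22 ± 0.20, adjusted p = 2.28e-05). ANAC087 (Glyma.16G152100), a factor of programmed cell death in Arabidopsis, was at 1.52, 12.2 and 4.37 CPM in 3mlpa and 1.04, 0.918 and 0.982 CPM in 3MWT (log2 fold change 2.62 ± 0.50, adjusted p = 0.000153), with replicate 2 of 3mlpa highest.

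WRKY factors had 5 of 66 genes higher and none lower with a median of 0.84 (9 higher without 3mlpa replicate 1). ERF and AP2 factors had 12 of 148 higher and 3 lower with a median of 0.03 (16 and 2 without that replicate). WRKY4 (Glyma.01G053800) was at 0.843, 1.57 and 1.76 CPM in 3mlpa and 0.389, 0.294 and 0.28 CPM in 3MWT (log2 fold change 2.09 ± 0.37, adjusted p = 5.42e-05) and the TOE1 homolog Glyma.02G087400, of a repressor of flowering, at 0.742, 1.63 and 2.11 CPM in 3mlpa and 0.13, 0.257 and 0.28 CPM in 3MWT (log2 fold change 2.71 ± 0.43, adjusted p = 1.26e-05). Of 141 MYB genes 7 were higher and none lower (10 and 1 without 3mlpa replicate 1). MYB85 (Glyma.17G133800), a lignin regulator, was at 2.33, 3.10 and 3.71 CPM in 3mlpa and 1.60, 1.47 and 1.4 CPM in 3MWT (log2 fold change 1.03 ± 0.20, adjusted p = 0.000209). RVE1 (Glyma.18G044200) was at 4.15, 16.0 and 18.5 CPM in 3mlpa and 4.54, 3.23 and 2.62 CPM in 3MWT, where 3mlpa replicate 1 lay within the 3MWT range (log2 fold change 1.89 ± 0.41, adjusted p = 0.000825).

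Calcium signaling genes had 23 of 147 members higher and 1 lower with a median of 0.51, and summed to 1263, 1396 and 1470 CPM in 3mlpa and 1024, 1058 and 1084 CPM in 3MWT. Besides the EF-hand gene above, CIPK3 (Glyma.02G275900), a kinase that acts with calcium sensors, was at 22.1, 44.1 and 36.2 CPM in 3mlpa and 18.2, 16.5 and 13.9 CPM in 3MWT (log2 fold change 1.07 ± 0.16, adjusted p = 7.73e-06). The lower member was a calmodulin-binding protein gene (Glyma.08G058600), at 13.5, 12.3 and 16.4 CPM in 3mlpa and 36.4, 35.5 and 40.8 CPM in 3MWT (log2 fold change -1.42 ± 0.21, adjusted p = 3.08e-06).

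**Figure D3:**
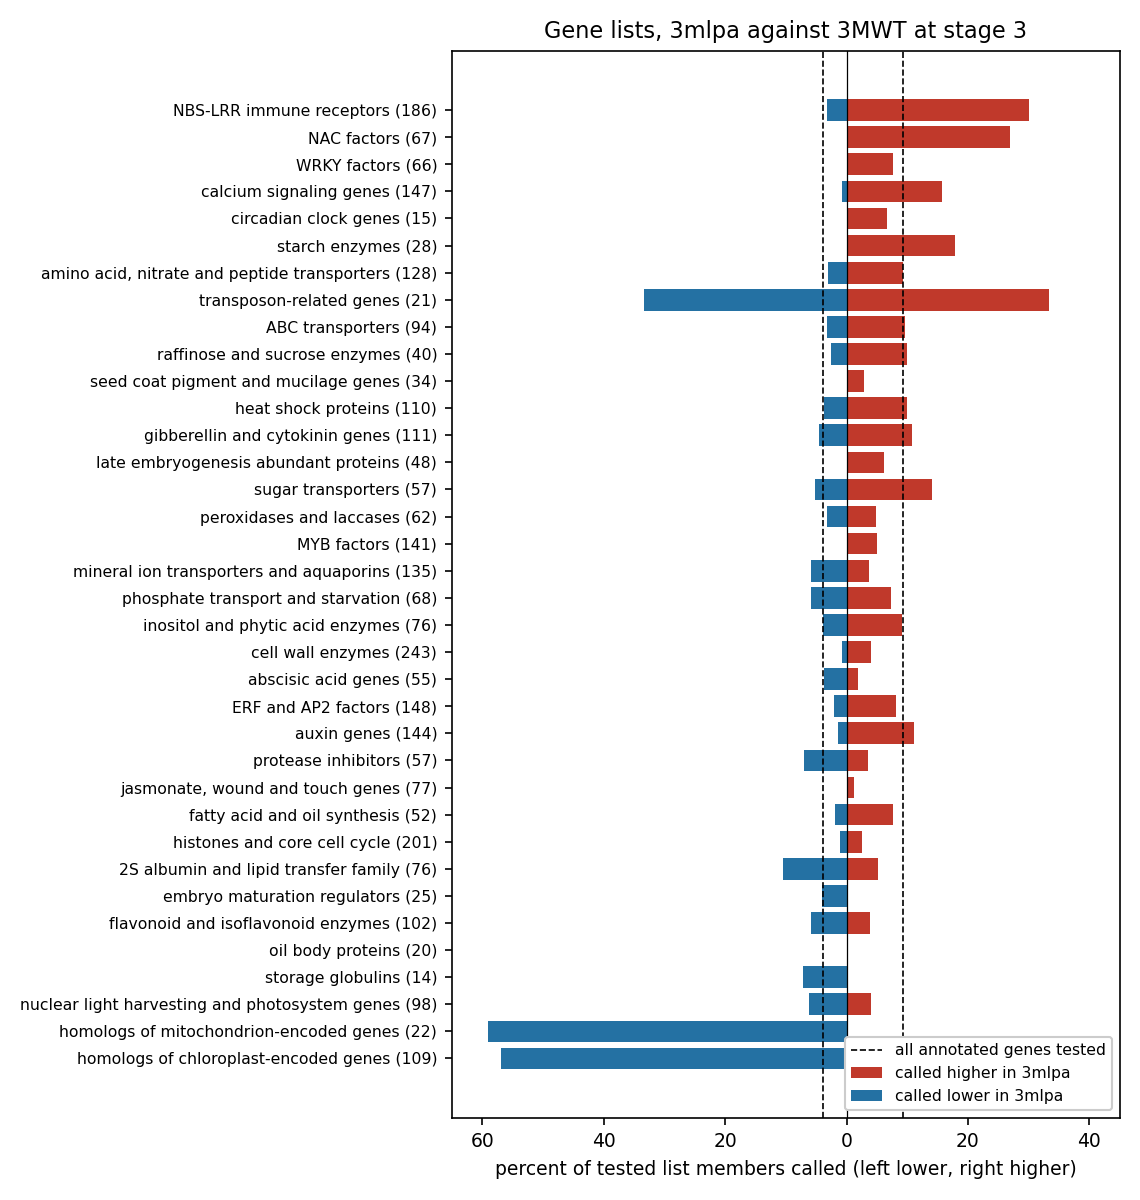
Percent of the tested members of each gene list called higher (right, red) and lower (left, blue) in 3mlpa at S3, with the number tested in brackets and lists ordered by median log2 fold change. Dashed lines mark the shares over all annotated genes, 9.26% higher and 3.89% lower. Lists that extended well past them included NBS-LRR and NAC genes to the right, homologs of organelle-encoded genes to the left and transposon-related genes on both sides.

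Auxin genes were called higher in 16 of 144 cases and lower in 2 (24 and 1 without 3mlpa replicate 1), and gibberellin and cytokinin genes in 12 and 5 of 111. The shares called were 12.5% and 15.3%, beside 13.1% of all annotated genes. GH3.6 (Glyma.12G216700), which conjugates auxin to amino acids, was at 3.44, 19.6 and 11.8 CPM in 3mlpa and 2.03, 2.20 and 1.92 CPM in 3MWT (log2 fold change 2.50 ± 0.37, adjusted p = 3.28e-06). The auxin efflux carrier gene PIN3 (Glyma.07G217900) was at 7.25, 9.20 and 7.03 CPM in 3mlpa and 15.1, 15.5 and 17.5 CPM in 3MWT (log2 fold change -1.03 ± 0.19, adjusted p = 8.54e-05, -0.97 and not called without 3mlpa replicate 1). GA2OX1 (Glyma.13G259400), which inactivates gibberellins, was at 56.6, 78.8 and 78.3 CPM in 3mlpa and 29.2, 25.4 and 25.7 CPM in 3MWT (log2 fold change 1.41 ± 0.23, adjusted p = 1.37e-05). Abscisic acid genes, with 1 of 55 higher and 2 lower (4 and 1 without 3mlpa replicate 1), included the receptor PYR1 (Glyma.09G204100) at 0.843, 1.60 and 1.76 CPM in 3mlpa and 2.08, 2.61 and 4.07 CPM in 3MWT (log2 fold change -1.06 ± 0.27, adjusted p = 0.00339, -0.78 and not called without 3mlpa replicate 1). The kinase OST1 (Glyma.02G135500) was at 1.99, 2.35 and 1.84 CPM in 3mlpa and 5.19, 4.41 and 3.51 CPM in 3MWT (log2 fold change -1.08 ± 0.22, adjusted p = 0.000392), lower like PYR1. The higher gene was an abscisic stress ripening gene (Glyma.20G167500) at 13.6, 55.0 and 22.8 CPM in 3mlpa and 7.10, 6.43 and 6.12 CPM in 3MWT (log2 fold change 2.22 ± 0.37, adjusted p = 2.45e-05). Of 77 jasmonate, wound and touch genes 1 was called (3 higher and 1 lower without 3mlpa replicate 1), LOX3 (Glyma.07G039900), a lipoxygenase of jasmonate synthesis, at 38.3, 46.1 and 38.1 CPM in 3mlpa and 17.7, 17.4 and 17.4 CPM in 3MWT (log2 fold change 1.22 ± 0.16, adjusted p = 5.95e-07).

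Heat shock genes had 11 of 110 members higher and 4 lower, and 20 higher without 3mlpa replicate 1. Of this list 13.6% was called, beside 13.1% of all annotated genes. The heat shock factor gene HSFA2 (Glyma.14G096800) was at 1.92, 9.46 and 4.84 CPM in 3mlpa and 1.13, 1.14 and 1.59 CPM in 3MWT (log2 fold change 2.08 ± 0.41, adjusted p = 0.000218), and a second HSP70 gene (Glyma.10G092000) had 0.506, 1.27 and 0.547 CPM in 3mlpa and 0 counts in each 3MWT library, at least 18.5-fold higher. A mitochondrial small heat shock protein gene (HSP23.6, Glyma.09G223800) was lower at 0, 0 and 0.0391 CPM in 3mlpa and 0.563, 0.734 and 0.608 CPM in 3MWT (adjusted p = 1.34e-05).

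Cell wall enzymes and cell division genes had 4.94% and 3.48% of their members called, beside 13.1% of all annotated genes. Of 243 cell wall enzyme genes 10 were higher and 2 lower, among them the xyloglucan modifying gene XTH16 (Glyma.03G065500) at 8.80, 14.6 and 16.1 CPM in 3mlpa and 2.16, 2.61 and 5.05 CPM in 3MWT (log2 fold change 2.02 ± 0.30, adjusted p = 4.24e-06). Its relative XTH23 (Glyma.17G064900) was at 2.29, 2.84 and 2.38 CPM in 3mlpa and 0.606, 0.624 and 0.187 CPM in 3MWT (log2 fold change 2.37 ± 0.48, adjusted p = 0.000339). Of 201 histone and core cell cycle genes 5 were higher and 2 lower (9 and 3 without 3mlpa replicate 1), with a cyclin dependent kinase gene (Glyma.05G046000) at 59.0, 82.9 and 81.1 CPM in 3mlpa and 31.3, 34.6 and 28 CPM in 3MWT (log2 fold change 1.25 ± 0.19, adjusted p = 4.45e-06). Their sums were 5183, 3715 and 3840 CPM in 3mlpa and 5209, 4809 and 4534 CPM in 3MWT, with 3mlpa replicate 1 at the level of 3MWT. Fatty acid and oil synthesis genes had 4 of 52 members higher and 1 lower (6 and 2 without 3mlpa replicate 1). The thioesterase gene FATB (Glyma.06G211300), which releases saturated fatty acids, was lower at 1.65, 1.76 and 1.02 CPM in 3mlpa and 4.46, 4.30 and 4.16 CPM in 3MWT (log2 fold change -1.53 ± 0.20, adjusted p = 2.65e-07), and PDAT1 (Glyma.07G036400), an acyltransferase of oil synthesis, was higher at 7.62, 6.46 and 5.39 CPM in 3mlpa and 2.47, 2.28 and 2.10 CPM in 3MWT (log2 fold change 1.51 ± 0.23, adjusted p = 7.74e-06). Peroxidases and laccases had 3 of 62 higher and 2 lower (3 and 5 without 3mlpa replicate 1), and 1 of 15 circadian clock genes was higher.

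Genes annotated by a chloroplast-encoded or mitochondrion-encoded counterpart were lower together. They are gene models of the nuclear assembly, and reads of the organelle genomes that match them cannot be told apart from their own. All 109 described homologs of chloroplast-encoded genes had a log2 fold change below 0, with a median of -2.66. Of these 62 were called (56.9%, beside 3.89% of all annotated genes lower), and 48 with a median of -2.70 without 3mlpa replicate 1. Nearly all described genes were called by the authors in some comparison of the series. Homologs without a description could not enter the list, so the shared direction covers described homologs only. Summed, they gave 32.1, 38.0 and 33.2 CPM in 3mlpa and 179, 300.3 and 219 CPM in 3MWT. Of 22 mitochondrial homologs 13 were lower (10 without 3mlpa replicate 1), at sums of 36.9, 49.4 and 41.8 CPM against 111, 134 and 118 CPM. The rbcL homolog Glyma.12G061600, for the large subunit of Rubisco, was at 1.42, 1.14 and 1.17 CPM in 3mlpa and 20.7, 34.1 and 30.1 CPM in 3MWT (log2 fold change -4.50 ± 0.60, adjusted p = 5.7e-07), the psbA homolog Glyma.13G028200 at 0.607, 0.685 and 0.547 CPM in 3mlpa and 7.79, 7.6 and 12.2 CPM in 3MWT (log2 fold change -3.89 ± 0.55, adjusted p = 2.04e-06) and the mitochondrial ATP1 homolog Glyma.05G092300 at 1.45, 2.41 and 1.76 CPM in 3mlpa and 12.5, 21.5 and 14.1 CPM in 3MWT (log2 fold change -3.09 ± 0.57, adjusted p = 0.000112). On chromosome 12, 9 chloroplast homologs from Glyma.12G231900 to Glyma.12G232900 were called in a row of neighbours, among them psbE (Glyma.12G232700) at 0.675, 0.555 and 0.312 CPM in 3mlpa and 10.2, 15.6 and 16.0 CPM in 3MWT (log2 fold change -4.73 ± 0.61, adjusted p = 2.4e-07).

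Gene models annotated as an intron-encoded homing endonuclease of ribosomal RNA, all on chromosome 13, were also called in 1 direction. Of 27 tested 9 were lower and none higher, with sums of 2.70, 2.87 and 1.72 CPM in 3mlpa and 22.2, 16.7 and 32.5 CPM in 3MWT, and 12 of the 50 genes of the window from Glyma.13G008600 to Glyma.13G021200 on chromosome 13 were lower. Lower retrotransposon protein genes were Glyma.08G269900 at 9.95, 9.95 and 8.75 CPM in 3mlpa and 78.3, 78.3 and 118 CPM in 3MWT (log2 fold change -3.26 ± 0.55, adjusted p = 3.58e-05) and Glyma.09G164000 at 14.6, 17.4 and 15.9 CPM in 3mlpa and 119, 122 and 173 CPM in 3MWT (log2 fold change -3.11 ± 0.54, adjusted p = 4.27e-05). Of 21 transposon-related genes 7 were higher and 7 lower, the lower ones including these. Libraries were made from polyadenylated RNA. Nuclear photosystem and light harvesting genes were lower to a smaller extent, 6 of 98 called lower and 4 higher (3 and 4 without 3mlpa replicate 1) with a median of -0.51 and 88 of 98 log2 fold changes below 0. Their sums of 6536, 7814 and 8058 CPM in 3mlpa lay below the 9829, 9385 and 10823 CPM of 3MWT. The most heavily read of those called was PSAF (Glyma.05G022900), a photosystem I subunit, at 179, 169.6 and 208 CPM in 3mlpa and 352, 349.9 and 491 CPM in 3MWT (log2 fold change -1.10 ± 0.22, adjusted p = 0.000332).

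**Figure D4:**
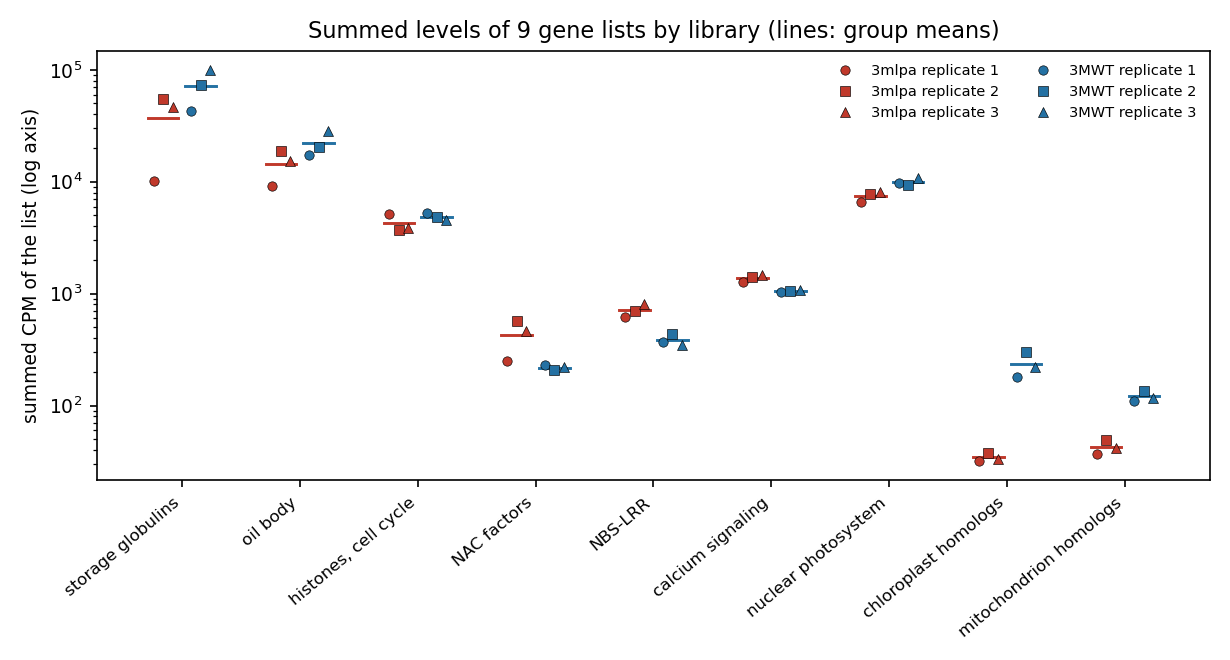
Summed CPM of the tested genes of 9 lists in each library of 3mlpa (red) and 3MWT (blue) at S3 on a log axis, with bars at the group means and a marker shape for each replicate. The sums of chloroplast and mitochondrion homologs, nuclear photosystem, calcium and NBS-LRR genes did not overlap between the lines, those of NAC genes were high in 3mlpa replicates 2 and 3, and 3mlpa replicate 1 had the lowest globulin and oil body sums.

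Stage-wise comparison of the same lines placed these differences in development. The line effect gave 1860 higher and 658 lower genes at S1 (4.59% and 1.62%) and 1369 and 541 at S2 (3.38% and 1.34%). It gave 432 and 526 at S4 (1.07% and 1.3%) and 686 and 1045 at S5 (1.69% and 2.58%). Of the genes higher at S3, 638 (48.9% of S3 and 46.6% of S2 calls) were also higher at S2 and 266 (20.4% and 61.6%) at S4, and of the genes lower at S3, 308 (58.6% and 56.9%) were lower at S2 and 304 (57.8% and 57.8%) at S4. At all 5 stages 127 genes were higher and 111 lower, including the HSP70, isoflavone methyltransferase, EF-hand, PIP2;5 and elongation factor genes named above. No gene called at S3 was called in the opposite direction at S2, S4 or S5, whereas at S1 3 of the higher and 1 of the lower genes were.

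At S3 and at no other stage 432 genes were called higher and 84 lower, but for none of these was the line effect at S3 shown to differ from that at S2 or S4. Tests of that difference over all genes called 2 genes against S2 (0.00247% of genes in each direction) and none against S4 (0%), where 3078 genes had an unadjusted p under 0.05 and DESeq2 also called none. Without 3mlpa replicate 1 there were 8 and 24. A gene near a transcription regulator of Arabidopsis (Glyma.14G201300) was at 0.843, 0.489 and 0.547 CPM in 3mlpa and 3.29, 3.49 and 3.23 CPM in 3MWT at S3, where the log2 fold change was -2.4 against 0.67 at S2, a difference of -3.07 (adjusted p = 0.01). The RAD3-like helicase gene (Glyma.14G223700) had 2.54 at S3 against 1.35 at S2, a difference of 1.19 (adjusted p = 0.000742).

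Seeds were staged by length, so the S3 values were set beside the genes that change with age. Of 2883 genes (7.12%) higher at S4 than at S2 in 3MWT, 136 were higher and 132 lower in 3mlpa at S3 with a median log2 fold change of -0.03, and of 2954 genes (7.29%) lower at S4, 61 were higher and 63 lower, also with a median of -0.03. By library, the genes that rise with age were at median log2 values of -0.26, 0.10 and 0.03 in 3mlpa and -0.15, -0.04 and 0.19 in 3MWT relative to the 3MWT mean. Replicate 1 of each line was thus on the early side and 3MWT replicate 3 on the late side, and without 3mlpa replicate 1 the line median was 0.09. The genes that fall with age were at 0.11, -0.10 and -0.14 in 3mlpa and 0.14, 0.02 and -0.15 in 3MWT, with a line median of -0.16 without 3mlpa replicate 1.

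In the 1mlpa and 1MWT pair at S3, 1 gene was called higher (0.00247%) and none lower (0%), with 3774 genes at an unadjusted p under 0.05. The line effects of the pairs differed for 1555 genes, 889 being higher in the 3mlpa pair and 666 lower (2.19% and 1.64%). That count was 853 without 1mlpa replicate 2, whose globulin transcripts summed to 60258 CPM against 9349 and 6906 CPM in the other 1mlpa libraries. Leaving out replicate 3 of 3MWT gave 909, replicate 2 of 3mlpa 945, replicate 1 of 1MWT 975 and replicate 1 of 1mlpa 1015. The libraries of the pairs come from separate studies of the group, so pair and sequencing effort cannot be told apart. Chloroplast homologs summed to 158, 60.5 and 37.5 CPM in 1mlpa and 35.4 to 42.6 CPM in 1MWT, so that 1mlpa replicate 1 came near 3MWT and 1mlpa replicate 2 lay between 3mlpa and 3MWT.

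**Figure D5:**
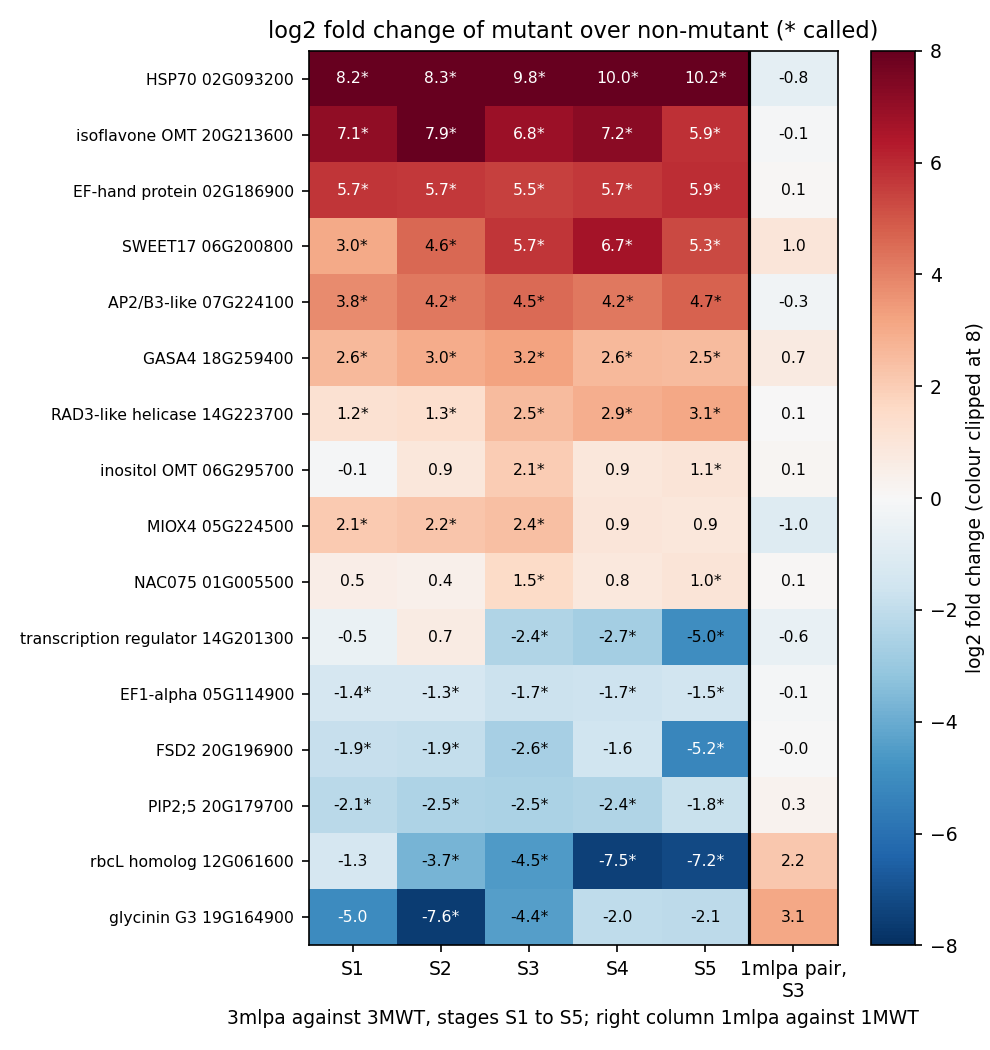
Log2 fold change of 3mlpa over 3MWT at S1 to S5 and of 1mlpa over 1MWT at S3 (right column) for 16 genes, with a star where the gene was called and colours clipped at 8. HSP70, isoflavone methyltransferase and EF-hand genes were higher at all 5 stages, the MIOX4 gene was called at S1 to S3, and no gene shown was called in the 1mlpa pair.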

How the data were processed

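Seeds of the soybean lines were sequenced as polyadenylated RNA with single-end reads, and the authors aligned the reads to Wm82.a2.v1 with STAR 2.4.2 and counted them per gene with featureCounts 1.4.6. The deposited table of raw counts, not normalized, was the basis of every test. The deposited RPKM values, which the authors scaled by gene length and library size, served only to compare levels between genes. Columns of the authors' own log2 fold changes (DESeq2 1.8.2 in R 3.2.4) were not used, and only the gene descriptions beside them were read, which exist for genes in those tables. Networks and module enrichments were not used. No table with gene sequences under these identifiers was at hand.

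Counts of all 60 libraries were filtered with filterByExpr, scaled by TMM and fitted with edgeR 4.0.16 (limma 3.58.1, R 4.3.3) with 1 coefficient per line and stage, which left 40 residual degrees of freedom, and contrasts were tested by quasi-likelihood with Benjamini-Hochberg adjustment over all genes tested. Fold changes are log2 with a standard error, CPM are counts per 1000000 counted reads, and a gene with 0 counts in a group was given a limit of 3 counts over that group. Mapping of the 60 columns to samples followed the column names. Tests of the stage and pair differences were interaction contrasts of the same fit. Alternatives were DESeq2's size factors, no filter, a replicate block, fewer libraries, DESeq2 1.42.0, another threshold, windows of 25 and 100 genes and leaving out each library. The code was tested on simulated data, and tables and figures were made in Python 3.11.15.

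The line pair, the gene lists and the tests were chosen with earlier results of these data known. Genes were named by rule. It took the 12 with the largest change in each direction among described genes with a mean log2 CPM above 1 and no overlap. It also took the 5 highest in each direction with 0 counts in 1 line, the 10 most heavily read and up to 4 per list. Genes whose S3 effect differed by the test from that at S2 or S4 were added. Which of these genes are described, and any gene outside the rule, was decided after their values were seen.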

Additional observations from a re-analysis of the deposited data

Results flagged for a closer look

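For 2 genes the line effect at S3 differed from that at S2 by the interaction test of edgeR, with a log2 difference of -3.07 for the gene near a transcription regulator (Glyma.14G201300) and 1.19 for the RAD3-like helicase gene (Glyma.14G223700). For 92 of the genes named above, the line effect of the 3mlpa pair at S3 differed from that of the 1mlpa pair by the same kind of test, at the limits used throughout. Over all tested genes 2.19% were higher and 1.64% lower in that contrast. Most named genes were chosen by their S3 line effect, and the contrast reuses the same S3 libraries. The count of 92 is thus largely set by that choice and is no separate result. The values below are the log2 fold change of 3mlpa over 3MWT minus that of 1mlpa over 1MWT. The lines of the pairs also differ in their libraries' sequencing effort, and pair and effort cannot be told apart.

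Among the stress, defence and signaling genes that were higher in 3mlpa, this difference was 10.55 for HSP70 (Glyma.02G093200), 6.92 and 5.10 for the isoflavone methyltransferase genes (Glyma.20G213600 and Glyma.20G213700), 5.39 for the EF-hand gene (Glyma.02G186900), 1.23 for CIPK3 (Glyma.02G275900), 4.06 for the chalcone synthase gene (Glyma.08G109500), 1.4 for LOX3 (Glyma.07G039900), 2.45 for the Kunitz inhibitor gene (Glyma.08G342000), 7.29 for SHT (Glyma.15G241300) and 2.48 for the helicase gene (Glyma.14G223700). The NBS-LRR genes gave 2.87 (Glyma.06G267400), 4.46 (Glyma.14G205000), 3.69 (Glyma.14G206500) and 2.51 (Glyma.03G034400).

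Genes of inositol, sugar, starch and phosphate metabolism followed with 1.92 and 2.03 for the inositol methyltransferase genes (Glyma.06G295700 and Glyma.12G109800), 3.44 for MIOX4 (Glyma.05G224500), 1.20 for IP5PII (Glyma.01G200500), 1.12 for the inositol phosphatase gene (Glyma.17G178700) and -2.87 for MIPS3 (Glyma.08G138200). Alpha-galactosidase genes gave 1.79 (Glyma.16G209800) and -1.34 (Glyma.20G216000), and SIP2 (Glyma.04G190000) 1.42. BAM3 homologs gave 3.57 (Glyma.11G039400), 2.75 (Glyma.01G203400) and 2.56 (Glyma.17G150100), and AMY1 (Glyma.17G242400) 2.41. Transporter genes gave 4.79 and 2.01 for the SWEET17 homologs (Glyma.06G200800 and Glyma.20G082700), 1.8 for SWEET2 (Glyma.12G234500), 2.68 for STP1 (Glyma.08G059700), 2.90 for PHT1;7 (Glyma.20G204000), 2.58 for AAP2 (Glyma.06G156700), 1.54 for ABCC2 (Glyma.04G126500), 8.07 for KUP1 (Glyma.10G119600) and 3.97 for the cation channel gene (Glyma.19G112800).

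Regulators and hormone genes gave 1.46 and 1.5 for the NAC075 homologs (Glyma.01G005500 and Glyma.07G126500), 1.35 for SND2 (Glyma.07G201800), 3.75 for ANAC087 (Glyma.16G152100), 2.48 for WRKY4 (Glyma.01G053800), 2.72 for TOE1 (Glyma.02G087400), 2.43 for RVE1 (Glyma.18G044200) and 4.83 for the AP2/B3-like gene (Glyma.07G224100). The value was 2.67 for GH3.6 (Glyma.12G216700), 1.98 for GA2OX1 (Glyma.13G259400), 2.50 for GASA4 (Glyma.18G259400), 2.13 for the abscisic stress ripening gene (Glyma.20G167500), -1.09 for PIN3 (Glyma.07G217900), -1.88 for PYR1 (Glyma.09G204100) and -1.25 for OST1 (Glyma.02G135500). Growth, wall and seed genes gave 2.15 for XTH16 (Glyma.03G065500), 2.60 for XTH23 (Glyma.17G064900), 1.5 for the cyclin dependent kinase gene (Glyma.05G046000), 1.5 for PDAT1 (Glyma.07G036400), 5.05 for ECP63 (Glyma.03G189200), 5.88 for the caleosin-type gene (Glyma.09G123800), 1.63 for the lipid transfer protein gene Glyma.05G002200 and 9.22 for the cytidine deaminase gene (Glyma.09G080100).

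On the lower side, abundant and metal-related genes gave -1.56 for the elongation factor gene (Glyma.05G114900), -1.60 for ROC3 (Glyma.12G024700), -2.31 for GGH1 (Glyma.13G267900), -2.60 and -2.46 for the FSD2 homologs (Glyma.20G196900 and Glyma.10G193500), -1.52 for CCH (Glyma.02G160500), -1.45 for COPT5 (Glyma.04G057000), -1.19 for the NRAMP3 homolog Glyma.05G101700, -2.79 for PIP2;5 (Glyma.20G179700) and -3.22 for PIP2;1 (Glyma.03G180900). Values of -4.32 for the stem 28 kDa glycoprotein gene (Glyma.07G014500), -4.50 for SPX3 (Glyma.03G032400), -7.52 for glycinin G3 (Glyma.19G164900), -1.56 for LTP3 (Glyma.18G214600), -1.79 for FATB (Glyma.06G211300), -1.88 for the chalcone isomerase-fold gene (Glyma.15G242900), -1.60 for the calmodulin-binding protein gene (Glyma.08G058600), -4.52 for CRK26 (Glyma.20G138000) and -4.39 for the BED zinc finger gene (Glyma.09G099400) were also found. For glycinin G3 the 3mlpa pair itself gave -4.42, and the rest of the difference lay in the 1mlpa pair. Summed globulin transcripts there were uneven, at 9349, 60258 and 6906 CPM in the 1mlpa libraries.

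Organelle-type and retrotransposon genes gave -6.66 for rbcL (Glyma.12G061600), -6.34 for psbA (Glyma.13G028200), -7.56 for psbE (Glyma.12G232700), -4.40 for ATP1 (Glyma.05G092300), -1.75 for the nuclear PSAF gene (Glyma.05G022900), -5.58 for Glyma.08G269900 and -5.30 for Glyma.09G164000. In 1mlpa at S3, replicate 1 was highest in such genes. Sums by replicate were 158, 60.5 and 37.5 CPM for chloroplast homologs and 450, 101 and 91.4 CPM for transposon-related genes. Differences between the pairs in these lists depend in part on that library. Where 1 of the lines 3mlpa and 3MWT had no read, the fitted difference depends on the prior count of the fit and is no measure of size. It was 10.28 for SAUL1 (Glyma.04G140100), 9.08 for the PIN domain gene (Glyma.17G002900), 9.17 for Glyma.03G030000, 8.71 for the TIR-NBS-LRR gene Glyma.06G268500, 7.62 for the HSP70 gene Glyma.10G092000, -10.86 for Glyma.08G358500 and -9.86 for Glyma.19G213800.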

How the results depend on the processing

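No gene named above changed direction under any alternative, and 49 of the 121 called genes among the 128 named kept their call under all 16 alternatives. The count of 1831 calls moved with the libraries in the fit and with the threshold. With the 6 compared libraries alone it was 497, with the replicate block in those libraries 256, and at an adjusted p under 0.05 without a fold limit 10011, the last by construction of the looser limit. Leaving out 1 library at a time it ranged from 987 to 2601. DESeq2 on the 6 libraries alone, an alternative chosen after seeing the data, called 1516. Of the 121 named calls 64 held with the 6 libraries alone, 56 with the block in addition, and 96 to 113 without 1 library. List members called numbered 425, 129 with the 6 libraries, 74 with the block in addition, and 240 to 498 without 1 library.

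The 2 genes that differed between S3 and S2 became 1 with DESeq2's size factors, 0 with the 30 libraries of 3mlpa and 3MWT, 4 with DESeq2 and 1 to 8 without 1 library, and the 0 genes between S3 and S4 became 0 to 24 without 1 library (0 with DESeq2). Between the pairs, 1555 genes became 853 to 2113 without 1 library. The medians of the genes higher and lower at S4, both -0.03, moved to -0.11 and 0.13 when the stage genes were taken from 1MWT. The causes were not tested.

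Deviations of same-numbered libraries from the means of their lines correlated at -0.108, -0.0376 and -0.0261. That gave no sign of pairing by replicate number, but deviations within 3 libraries a line cannot exclude it. With the replicate block over all libraries 1810 genes were called, and over the 30 libraries, a pairing fit added after seeing the data, 1448. With the block over the 30 libraries 0 genes differed between S3 and S2. Precision is limited by 3 libraries a line and, for genes under about 1 CPM, by few reads.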

Other observations

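Over the stages S1 to S5, 14.1%, 10.4%, 9.26%, 3.2% and 5.1% of all annotated genes were called higher in 3mlpa and 4.91%, 3.95%, 3.89%, 3.9% and 8% lower. Beside these shares, WRKY factors had 35, 10, 5, 2 and 1 of 66 genes higher in 3mlpa from S1 to S5, with list medians of 1.25, 0.67, 0.84, 0.58 and 0.29. Calcium signaling genes had 53, 16, 23, 13 and 9 of 147 higher, and NBS-LRR genes 75, 38, 56, 31 and 27 of 186. Jasmonate, wound and touch genes had 16 of 77 higher at S1 and 1 at S3. Homologs of chloroplast-encoded genes had 2, 40, 62, 109 and 109 of 109 genes lower from S1 to S5, at list medians of -0.42, -2.01, -2.66, -5.34 and -5.03. The lists hold described genes only, nearly all called by the authors in some comparison of the series. In the 1mlpa pair at S3 none of these lists had a called gene, and the chloroplast homologs had a median of 1.05. Whether the line effect of a list differs between stages was not tested.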
